A study of Mus musculus with 2 samples.

Results

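The genes described here encode the proteins of the cytosolic ribosome. They were taken by gene symbol from a table of 47719 mouse genes: protein-coding symbols made of Rpl or Rps and a number, with an optional letter or l suffix, together with Rplp0, Rplp1, Rplp2, Rpsa and Fau, and without pseudogenes and the Rps6k kinases. The rule found 85 genes, 52 of the large and 33 of the small subunit. A level of at least 1 CPM (reads of a gene scaled to the size of its library) was reached in a library by 82 of them, which are called expressed below, out of 12326 expressed genes in all.

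The study sequenced polyadenylated RNA of primary keratinocytes from mouse tails, with 1 library from Pp6fl/fl mice and 1 from K5.Pp6fl/fl mice. Both carry floxed alleles of Pp6 (Ppp6c), the catalytic subunit of the serine/threonine phosphatase PP6. K5 stands for the keratin 5 promoter, active in basal keratinocytes, which drives the recombinase that deletes the gene in the second genotype only. All mice were C57BL/6J and 8 weeks old, the cells of both genotypes were cultured for 3 days, and the labels do not say how many mice gave each culture. With 1 library per genotype there is no spread between replicates, so no comparison was tested here, and each 95% interval covers counting error only. FDR values quoted from the authors' deposited table also rest on 1 library per genotype, with no replicates behind them.

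A ribosome holds 1 copy of nearly every ribosomal protein, so their genes are expressed at high and related levels. Most of their mRNAs begin with a 5′ terminal oligopyrimidine (TOP) tract, through which the kinase mTOR and the RNA-binding protein LARP1 set their translation. In the epidermis, basal keratinocytes make new ribosomes as they grow and divide. RNA levels, which are measured here, do not show translation.

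The libraries held 19374771 and 17361260 estimated reads in genes, Pp6fl/fl first, as in all pairs of values below. Ppp6c had 1074 and 707 reads, or 55.5 and 40.67 CPM, a ratio of 0.733 (interval 0.666 to 0.807), so the library labelled as deleted still held most of the control level of Ppp6c reads. The labels do not say which exons are floxed, so these reads may include some from outside the deleted stretch. In the deposited FPKM (reads per kilobase of effective length, scaled to depth) Ppp6c had 30.59 and 16.76. That is a larger difference than in reads, and its cause was not tested. All 10 keratinocyte markers were expressed, with a summed level of 60020 and 56810 CPM. Melanocyte markers were expressed in 5 of 6 cases and summed to 14.4 and 21.3 CPM, a ratio of 1.48 (1.27 to 1.74). Of these 5, Pmel (ratio 2.23), Dct (2.12) and Tyrp1 (1.995) had intervals above 1. Tyr (1.80, 0.859 to 3.909) and Mitf (0.900, 0.694 to 1.166) had intervals that include 1, and only Mitf was lower. None of the fibroblast, immune, endothelial and muscle markers reached 1 CPM, and Lum, Cd207, Cd3e, Cd74, Ptprc, Ckm and Des were at 0 reads in both libraries. The part of the melanocyte markers in the values below was not tested.

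Promoter sequences show what many of these genes share apart from their symbols. RefSeq promoter windows (build GRCm38.p6, 250 bases before to 50 after a start) were at hand for 65 of the 85 genes. The core of the ETS-family site, CCGGAAG on either strand, was present for 26 of them (40.0%), against 9.93% of the 27025 genes in the table and 21.4% of 8949 other expressed coding genes. The pyrimidine core CTTTCC, searched in the same way on both strands, was found for 34 (52.3%), against 29.3% of all genes. The YY1-type core AAGATGG was found for 11 (16.9%), against 7.28%. TATAA was found for 18 (27.7%), against 28.0% of all genes and 15.3% of the other expressed genes. These letters are matches in a window and not measured binding. CTTTCC read on the other strand can share bases with AAGATGG. The 4 most abundant genes with the ETS core in such a stretch outside annotated exons are shown first, followed by Rplp0, the most abundant gene, Rpl7l1, the one with the lowest ratio, and Rps15a, whose FPKM and reads differ. Each is 100 bases, 5′ to 3′ on the gene's strand, that ends before the RefSeq start or before the first annotated exon where that lies further upstream. Capitals mark matches to the 4 motifs.
Rps6 (chr4:86857413-86857512, minus strand): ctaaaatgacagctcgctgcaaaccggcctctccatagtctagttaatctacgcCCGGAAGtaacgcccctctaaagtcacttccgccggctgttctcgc
Rps7 (chr12:28635954-28636053, minus strand): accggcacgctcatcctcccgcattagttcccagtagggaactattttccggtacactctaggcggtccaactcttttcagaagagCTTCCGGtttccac
Rps18 (chr17:33955678-33955777, minus strand): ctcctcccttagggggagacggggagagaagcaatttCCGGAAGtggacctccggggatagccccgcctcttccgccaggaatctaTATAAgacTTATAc
Rpl37 (chr15:5116513-5116612, plus strand): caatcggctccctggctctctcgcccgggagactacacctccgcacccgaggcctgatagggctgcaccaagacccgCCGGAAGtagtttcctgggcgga
Rplp0 (chr5:115559367-115559466, plus strand): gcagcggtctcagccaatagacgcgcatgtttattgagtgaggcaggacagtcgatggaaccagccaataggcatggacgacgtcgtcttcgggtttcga
Rpl7l1 (chr17:46782673-46782772, minus strand): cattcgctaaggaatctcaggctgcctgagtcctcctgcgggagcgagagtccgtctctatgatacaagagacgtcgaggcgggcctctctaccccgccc
Rps15a (chr7:118116189-118116288, minus strand): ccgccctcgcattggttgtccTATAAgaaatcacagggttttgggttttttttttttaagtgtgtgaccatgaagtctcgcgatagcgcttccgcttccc
Among expressed genes with the ETS core the median log2 ratio of K5.Pp6fl/fl over Pp6fl/fl was -0.02 (25 genes), and without it 0.00075 (37 genes). This difference was not tested. A TOP start, read as a C followed by at least 4 pyrimidines at the first base of an annotated transcript, was present in 23 of the 85 genes (27.1%), against 5.74% of 11278 other expressed coding genes. Their median log2 ratio was -0.0026, and that of the 59 expressed genes without such a start was -0.0029. Annotated starts often miss the true first base, so these shares are counts of annotation.

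The ribosomal protein mRNAs held almost the same share of reads in both libraries. Their summed reads were 584857 and 518016, or 3.02% and 2.98% of each library, and 30220 and 29800 CPM. The ratio of the sums was 0.986 (0.982 to 0.990). The median log2 ratio of the 82 expressed genes was -0.0028, against -0.013 for all expressed genes, and their log2 ratios ran from -0.22 to 0.13. Of the 82 genes, 38 were higher and 44 lower in K5.Pp6fl/fl, and 81 lay within 0.15 of 0 on the log2 scale.

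**Figure D1:**
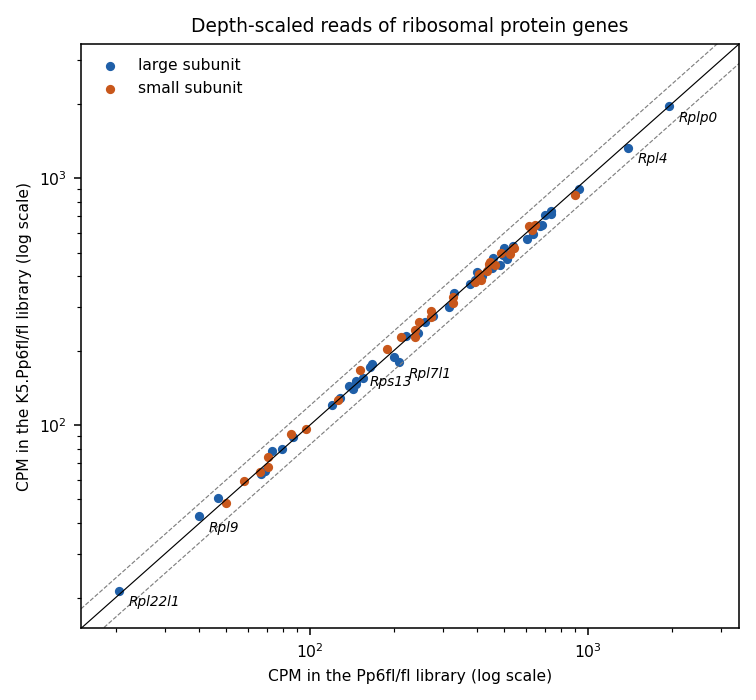
CPM of the 82 expressed ribosomal protein genes in the Pp6fl/fl library (x axis, log scale) and the K5.Pp6fl/fl library (y axis, log scale), coloured by subunit; the solid line marks equal levels and the dashed lines a 1.2-fold difference. All points lie between the dashed lines, from Rpl22l1 at 20.5 and 21.3 CPM to Rplp0 at 1951 and 1954 CPM.

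No ribosomal protein gene was past 1.2-fold in either direction. That threshold was passed upwards by 9.07% and downwards by 6.13% of all expressed genes, and by 5.73% and 3.3% of the 2303 genes at 100 CPM or more. A 2-fold difference in either direction was seen in 1.01% of expressed genes and in no ribosomal protein gene. The interquartile range of the log2 ratios was 0.103 for the ribosomal protein genes, 0.242 for all expressed genes and 0.165 for the 2222 other genes at 100 CPM or more. The SDs over genes were 0.066, 0.284 and 0.174 in the same order.

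Small differences were nonetheless larger than counting error for part of these genes, as they were for part of all deeply read genes. The interval lay above 1 for 13 genes (15.9%) and below 1 for 23 (28.1%), and it included 1 for 46. Among all expressed genes 16.6% were above and 17.4% below. Among genes at 100 CPM or more, the closer background for such abundant genes, 26.0% were above and 30.5% below, and of the 67 ribosomal protein genes at that level 12 were above (17.9%) and 23 below (34.3%). The counts of the ribosomal protein genes are therefore close to those of other abundant genes on the low side and under them on the high side. In the authors' deposited table, 14.4% of expressed genes had an FDR under 0.05, and among the ribosomal protein genes this held for 1 of 82, Rpl7l1.

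**Figure D2:**
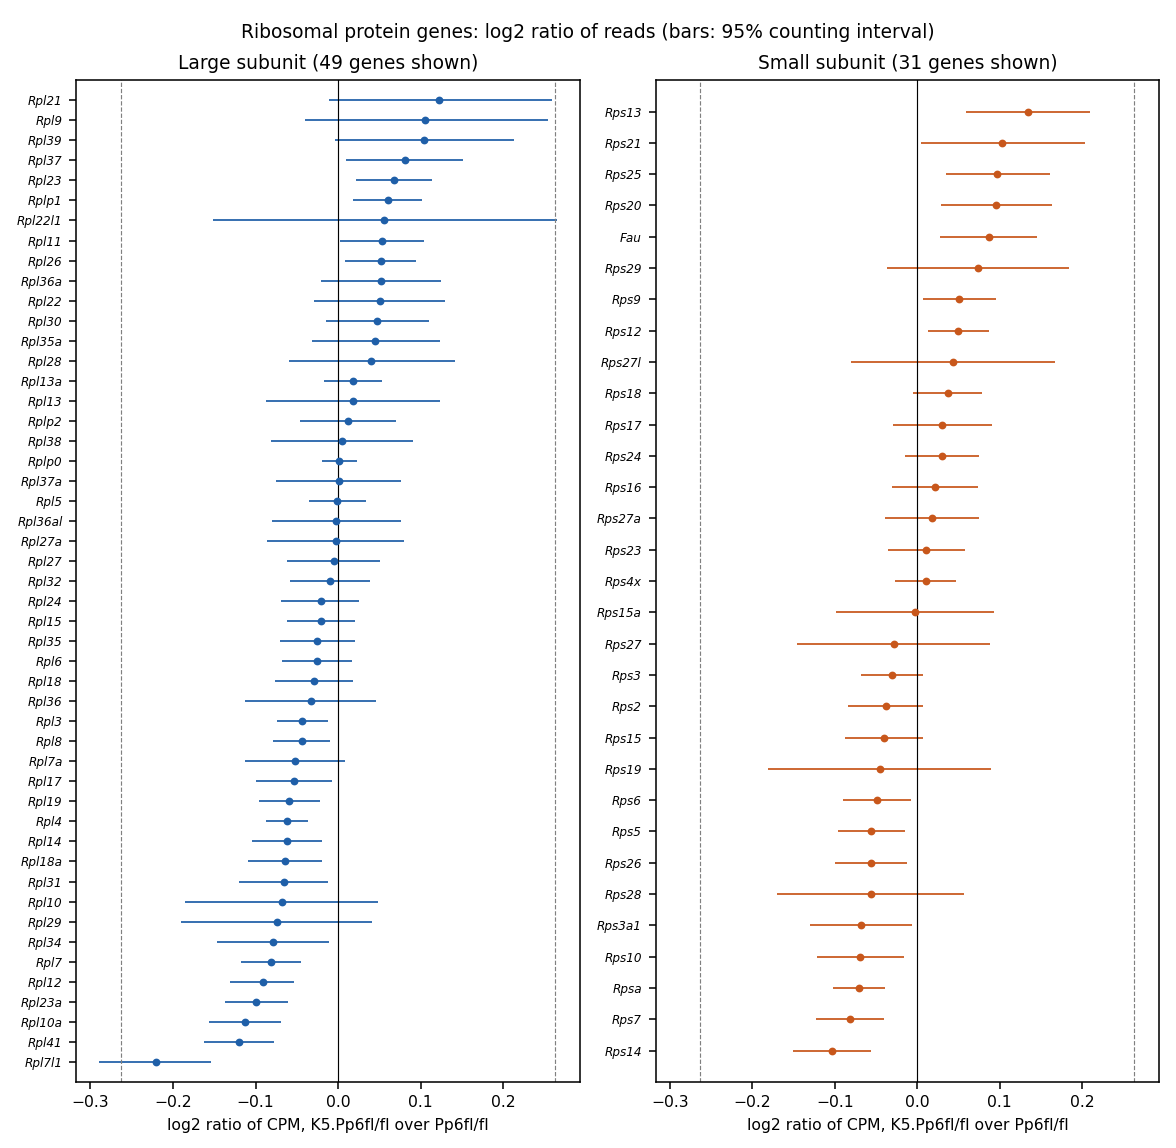
Log2 ratio of CPM (x axis) for the expressed genes reported here (y axis), with large-subunit genes on the left and small-subunit genes on the right; bars are 95% counting intervals and dashed lines a 1.2-fold difference. Rpl7l1, at -0.22, is the only point beyond -0.15, and the small subunit runs from Rps14 at -0.10 to Rps13 at 0.13.

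The large subunit carries the peptidyl transferase centre and the exit tunnel. Its 52 genes summed to 372565 and 328304 reads, a ratio of 0.981 (0.976 to 0.986), with a median log2 ratio of -0.01 over 49 expressed genes. The interval was above 1 for 5 of them (10.2%) and below 1 for 15 (30.6%). Among genes at 100 CPM or more these shares were 26.0% and 30.5%, and among all expressed genes 16.6% and 17.4%. The most abundant was Rplp0, the base of the acidic stalk that recruits translation factors, with 37762 and 33960 reads, 1951 and 1954 CPM, and a ratio of 1.001 (0.987 to 1.016). Rplp1 and Rplp2, which form the dimers of that stalk, had 500 and 521.3 CPM (ratio 1.04, 1.01 to 1.07) and 258.7 and 260.9 CPM (ratio 1.01, 0.969 to 1.05). The intervals of Rplp0 and Rplp2 include 1, and that of Rplp1 lies above it. Rpl4, which lines the exit tunnel, had 1388 and 1330 CPM (ratio 0.958, 0.942 to 0.975). Rpl3, near the peptidyl transferase centre, had 930.5 and 903.1 CPM (ratio 0.971, 0.950 to 0.992).

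The lowest ratio of all was that of Rpl7l1, a paralog of Rpl7 known from pre-ribosomal particles. It had 4045 and 3116 reads, 209.0 and 179.3 CPM, and a ratio of 0.858 (0.818 to 0.899), with an FDR of 0.00372 in the authors' deposited table. Its parent Rpl7 had 682.1 and 644.6 CPM, a ratio of 0.945 (0.921 to 0.969). Both were lower in the K5.Pp6fl/fl library, Rpl7l1 by the larger step. Next came Rpl41, the shortest ribosomal protein, with 511.4 and 470.6 CPM (ratio 0.920, 0.894 to 0.948), and Rpl10a, at the L1 stalk, with 482.0 and 445.8 CPM (ratio 0.925, 0.897 to 0.953). Rpl23a, at the mouth of the exit tunnel, had 634.0 and 592.0 CPM (ratio 0.934, 0.910 to 0.959). Rpl12, at the stalk base, had 602.4 and 565.4 CPM (ratio 0.939, 0.914 to 0.964). All 5 intervals lie below 1.

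At the other end of the large subunit stood Rpl21 with 46.7 and 50.9 CPM (log2 ratio 0.12, interval of the ratio 0.992 to 1.197) and Rpl9 with 39.7 and 42.8 CPM (ratio 1.077, 0.973 to 1.193). Rpl39, a small protein of the exit tunnel, had 73.1 and 78.6 CPM (ratio 1.07, 0.998 to 1.16). These 3 have few reads on the gene itself, and their intervals include 1. For Rpl9 and Rpl21 most reads lay on near-identical copies. With copies added their intervals lay above 1 (Rpl9 1.008 to 1.084, Rpl21 1.011 to 1.128). Rpl37 had 167.7 and 177.4 CPM (ratio 1.06, 1.01 to 1.11) and Rpl23, also known for binding the p53 regulator MDM2, had 398.4 and 417.5 CPM (ratio 1.05, 1.02 to 1.08), with intervals above 1.

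The small subunit decodes the mRNA. Its 33 genes, all expressed, summed to 212292 and 189712 reads, a ratio of 0.995 (0.989 to 1.001), with a median log2 ratio of 0.01. Intervals lay above 1 for 8 genes (24.2%) and below 1 for 8 (24.2%), beside 26.0% and 30.5% of genes at 100 CPM or more. Rpsa, the laminin receptor protein of the small subunit, was the most abundant with 901.0 and 857.9 CPM (ratio 0.952, 0.932 to 0.973). Rps4x, which is X-linked, had 643.2 and 647.8 CPM (ratio 1.01, 0.982 to 1.03), and Rps3, at the mRNA entry channel, had 627.2 and 614.1 CPM (ratio 0.979, 0.954 to 1.01).

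Rps13 had the highest ratio of all 82 genes, with 2934 and 2892 reads, 151.6 and 166.4 CPM, and a ratio of 1.10 (1.04 to 1.16). Rps21 had 85.8 and 92.2 CPM (ratio 1.07, 1.003 to 1.15) and Rps25, known for its part in internal initiation, had 212.6 and 227.5 CPM (ratio 1.07, 1.02 to 1.12). Rps20 had 189.7 and 202.7 CPM (ratio 1.07, 1.02 to 1.12). Fau, which encodes Rps30 fused to a ubiquitin-like protein, had 247.3 and 262.6 CPM (ratio 1.06, 1.02 to 1.11). These 5 intervals are above 1 and none of the ratios passes 1.2-fold.

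Rps14, a protein of the platform, had the lowest ratio of the small subunit, with 413.8 and 385.2 CPM (ratio 0.931, 0.901 to 0.962). Rps7 had 523.1 and 494.3 CPM (ratio 0.945, 0.918 to 0.973), and Rps10, known from inherited Diamond-Blackfan anaemia, had 326.2 and 310.9 CPM (ratio 0.953, 0.919 to 0.989). Rps3a1 had 237.9 and 227.0 CPM (ratio 0.954, 0.914 to 0.996), but with its near-identical copies added the ratio was 0.978 (0.950 to 1.008), which includes 1. The difference between the median log2 ratios of the subunits, large minus small, was -0.02, and it was not tested. The reads of the large over the small subunit stood at 1.76 and 1.73.

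Paralogs with an l suffix replace a core protein in some tissues. Rpl3l (heart and skeletal muscle), Rpl10l and Rpl39l (testis) had 0 reads in both libraries. Rpl22l1 had 397 and 371 reads (ratio 1.04, 0.901 to 1.202) beside 2682 and 2495 for Rpl22 (ratio 1.036, 0.980 to 1.094). Rpl36al had 2844 and 2551 reads (ratio 0.999, 0.946 to 1.05) beside 3195 and 2975 for Rpl36a (ratio 1.037, with 1 inside its interval). Rps27l, known as a p53 target, had 1117 and 1034 reads (ratio 1.03, 0.946 to 1.12) beside 1279 and 1126 for Rps27 (ratio 0.980, 0.904 to 1.06). Of the 4 expressed paralogs only Rpl7l1 had an interval without 1.

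Many processed pseudogenes are near-identical to these genes, and reads could be split between them. By alignment (at least 90% identity) or by symbol, 81 of the 85 genes had at least 1 copy in the table, 957 copies in all, of which 101 were expressed. The copies held 69125 and 62183 reads, a ratio of 1.001 (0.991 to 1.012). For 18 genes more than 10% and for 9 genes more than 50% of the reads of gene plus copies lay on copies, among them 87.6% for Rpl9, 87.1% for Rpl10, 85.5% for Rpl13, 66.2% for Rpl21, 64.97% for Rpl29, 58.9% for Rpl27a, 51.6% for Rps3a1 and 51.1% for Rpl28, all in Pp6fl/fl. The levels given above for Rpl9, Rpl21 and Rps3a1 are those of the gene alone.

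Adding the copies moved the interval across 1 for 9 genes and the sign for 4. Rpl10 went from 66.7 and 63.6 CPM (log2 ratio -0.07) alone to a log2 ratio of 0.06 with its copies (interval of the ratio 1.01 to 1.07). Rps19 went from -0.05 to 0.05, Rpl27a from -0.0029 to 0.026 and Rps15a from -0.0026 to 0.0058, so the direction of these 4 is uncertain. Rpl9 and Rpl21 moved to intervals above 1, and Rpl6, Rpl7a and Rps2 to intervals below 1. For Rpl11 the interval above 1, and for Rps6 and Rps3a1 the interval below 1, was lost with copies. Per length, in FPKM, the 78 genes other than paralogs spread with an SD of 1.212 and 1.199 on the log2 scale alone, and of 0.77 and 0.77 with copies added.

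**Figure D3:**
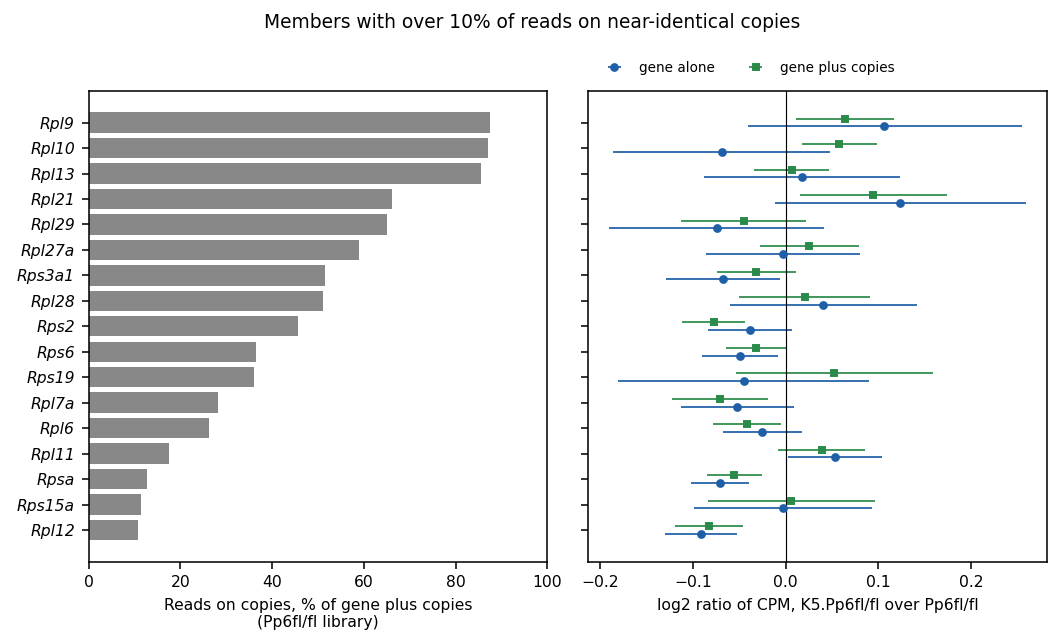
Left, reads on copies as a percentage of gene plus copies in the Pp6fl/fl library; right, log2 ratio of CPM for the gene alone (circles) and with copies (squares), with 95% counting intervals, for the genes above 10% that are reported here. Rpl10 goes from -0.07 to 0.06 and Rps19 from -0.05 to 0.05.

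The kit does not mark the strand, so reads of overlapping genes cannot be told apart. Exons of 21 of the genes overlap another gene of the table. Rpl28 with 1684 and 1556 reads overlaps Ube2s, which had 1837 and 2112, and its values are uncertain. For 7 genes (Rpl28, Rpl35, Rpl18, Rpl31, Rps25, Rps18 and Rps28) the overlapping genes held more than 10% as many reads as the gene itself. Introns of 30 of the genes hold 58 snoRNA genes, and the median log2 ratio was -0.0019 with and -0.0039 without them.

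The deposited FPKM, reads per kilobase of effective length, scaled to depth, moved the ratio of 5 of the 82 genes by more than their counting error, that of Rps15a the most. Rps15a, a small-subunit protein, had 1877 and 1683 reads (ratio 0.998, 0.934 to 1.07) but an FPKM of 534.9 and 813.2, a log2 ratio of 0.60, and in the authors' deposited table its log2 fold change is 0.60 with an FDR of 0.995. The effective length implied by reads and FPKM was 181.1 and 119.2 bases. Annotated transcripts of Rps15a run from 250 to 5179 bases. The others were Rpl31 (log2 ratio -0.07 from reads and -0.12 from FPKM), Rpl5 (-0.00079 and -0.04), Rplp2 (0.01 and -0.07) and Rps3 (-0.03 and 0.02), and for Rplp2 and Rps3 the direction differs. The difference between the FPKM and reads ratios was over 0.1 on the log2 scale for this gene alone among 82, against 9.66% of 2236 other abundant genes.

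**Figure D4:**
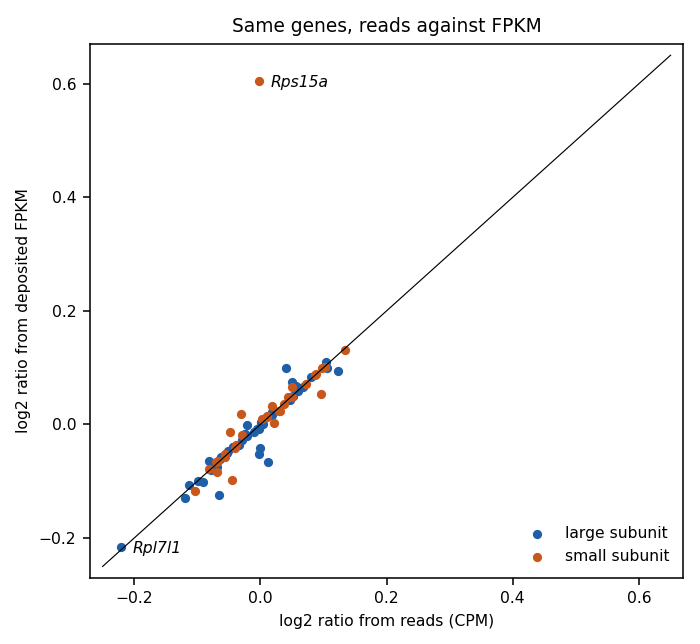
Log2 ratio from reads (x axis) against log2 ratio from deposited FPKM (y axis) for the 82 genes, coloured by subunit; the line marks equal ratios. Rps15a stands at -0.0026 and 0.60, apart from all others.

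The ratios went weakly with the length and level of the mRNA. Over the 82 genes the log2 ratio had a Pearson r of -0.29 (Spearman -0.31) with log2 transcript length and -0.24 (-0.23) with GC content. With log2 CPM in the Pp6fl/fl library the r was -0.37 (-0.38). That CPM is also the denominator of the ratio, so the values are not independent. The points share 2 libraries, and length, GC and level are themselves related, so these are descriptions. The 41 genes under 630 bases had a median of 0.02, with 9 intervals above and 6 below 1. The 41 longer ones had a median of -0.04, with 4 above and 17 below. Beside these counts, 26.0% of genes at 100 CPM or more were above and 30.5% below. Of all expressed genes 16.6% were above and 17.4% below. Over 2221 other genes at 100 CPM or more the r with length was -0.0064. The 4 X-linked genes had a median of 0.03.

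Other parts of the translation machinery were set beside these genes. The 78 mitochondrial ribosomal protein genes, all expressed, had a median log2 ratio of -0.04, with 3 intervals above (3.85%) and 9 below 1 (11.5%), both under the 16.6% and 17.4% of all expressed genes, and with 2 genes past 1.2-fold each way. Mrpl12 had 98.96 and 95.04 CPM and Mrps18b 94.2 and 91.0. Mrps36 had 15.1 and 18.7 CPM (ratio 1.24, 1.06 to 1.46), and Mrpl57 had 26.6 and 20.7 CPM (ratio 0.780, 0.680 to 0.894). Elongation factors, 7 genes, had a median of 0.02, with Eef1a1 at 4803 and 4753 CPM and Eef2 at 3096 and 3153 CPM. Initiation factors, 28 genes, had a median of -0.03, with 8 above (28.6%) and 11 below (39.3%), beside 26.0% and 30.5% of genes at 100 CPM or more, and none past 1.2-fold. Eif4g2 had 1109 and 1242 CPM, and Eif3a 1099 and 1066 CPM.

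Other TOP mRNAs, 9 genes, had a median of 0.05, with 5 intervals above (55.6%) and 1 below 1 (11.1%), beside 26.0% and 30.5% of genes at 100 CPM or more. Rack1, a small-subunit scaffold, had 1130 and 1115 CPM, and Tpt1 1022 and 1131 CPM (ratio 1.106, 1.085 to 1.129). Gas5, a noncoding snoRNA host, had 128.3 and 102.9 CPM (ratio 0.802, 0.754 to 0.853). Among 14 regulators of TOP mRNAs and growth the median was -0.07, with 2 above (14.3%) and 5 below (35.7%), beside 16.6% and 17.4% of all expressed genes. Larp1 had 385.1 and 386.7 CPM (ratio 1.004). Myc had 272.5 and 225.7 CPM (ratio 0.828, 0.795 to 0.863), and Larp4 167.1 and 201.4 CPM (ratio 1.205, 1.148 to 1.264).

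**Figure D5:**
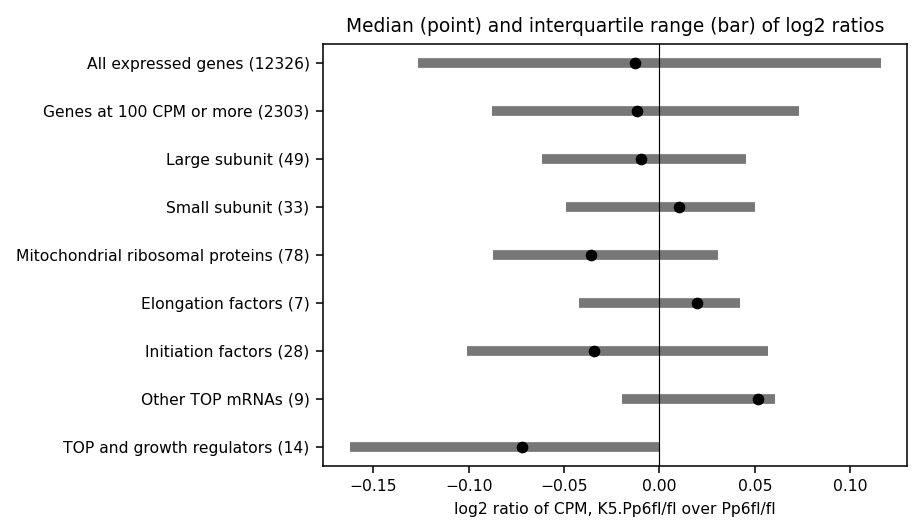
Median (point) and interquartile range (bar) of the log2 ratio of CPM (x axis) for each group (y axis), with the number of expressed genes in brackets. The ribosomal subunits, at medians of -0.01 and 0.01, have narrower bars than all expressed genes, and so has every other group shown. The interquartile ranges were 0.107 for the large subunit, 0.099 for the small subunit and 0.242 for all expressed genes. Elongation factors (0.084) and other TOP mRNAs (0.080) had narrower ranges than either subunit.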

How the data were processed

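RNA of 2 keratinocyte libraries, grouped by their genotype label, was used from 1 table. The authors deposited estimated counts, FPKM, log2 fold changes, p-values and FDR per gene; per the submitters' processing notes, RSEM, edgeR and build mm8 were involved (no version or role stated). Aligner, annotation and filters: not given in the sources used. The deposited estimated counts were found, once the table was at hand, to be reads multiplied by 1 constant per library (0.946 and 1.06); 97.4% of values under 100 reads came out whole within 0.01 reads in both columns. They were divided by it, which gave totals of 19374771 and 17361260 reads. Reads per gene were rounded for the scaling factors, the intervals and the printed read numbers, and not for CPM.

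The 47219 of 47719 gene IDs that match the GENCODE annotation (GRCm38) have symbols; no coordinates of measured values are given, since the builds differ. CPM was scaled by TMM (edgeR 4.0.16, R 4.3.3). Log2 ratios added 0.5 CPM. Intervals are exact conditional binomial (Clopper-Pearson). Copies were found with BLAST 2.17.0 (90% identity over 0.5 of the shorter sequence). The code was tested on simulated data.

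The members and lists were chosen with earlier results of these data known. The named genes are, per subunit, the 3 most abundant and the 5 highest and 5 lowest ratios, with stalk genes, Rpsa, Fau, expressed paralogs with parents, and in each list the 2 most abundant and up to 4 past 1.2-fold. Some genes that the rule takes are counted but not reported here by name. Alternatives were other scalings, FPKM, copies added, GC and length correction (regression), other pseudocounts and floors, and members left out. DESeq2 1.42.0 gave median-of-ratios factors. Promoter windows come from RefSeq.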

Additional observations from a re-analysis of the deposited data

How the results depend on the processing

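The summed reads of all members had a log2 ratio of -0.0203 with TMM. It was -0.0121 with upper quartile scaling, -0.0051 from FPKM as deposited and 0.0067 from FPKM scaled to the same sum, where its direction reverses. Without Rps15a the last value was 0.0013. The median over expressed members lay between -0.0124 and 0.0054 over the alternatives run, so its sign carries no weight. The subunit difference of -0.020 ran from -0.032 (members at 50 CPM or more) to 0.0061 (GC and length correction). Counts of intervals ran from 13 to 15 above and from 20 to 24 below 1, and the FPKM settings give none. Single members moved by more than their interval in 5 cases with FPKM as deposited, 4 with FPKM scaled to the same sum, 5 with GC and length correction and 1 (Rpl10) with copies. The causes were not tested. No paired analysis was possible because there is 1 library per genotype, and for the same reason no library could be left out. Counting error alone gave a median interval half-width of 0.052 on the log2 scale.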
